A study of Homo sapiens with 6 samples.

Results

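The replication-dependent histone genes, the genes that supply histone protein to newly made chromatin, were compared by class between SH-SY5Y cells given extra ERRγ and control cells. The set was taken by name as the protein-coding genes called H1-1 to H1-5 or H2AC, H2BC, H3C or H4C followed by a number, with the Ensembl identifiers of the count table matched to GENCODE symbols. It holds 68 genes, namely 5 H1, 17 H2A, 18 H2B, 13 H3 and 15 H4 genes. Of these, 66 were among the 67060 genes of the table, and H2AC18 and H2AC19 were not analysed here. The filter on low counts passed 55 members (4 H1, 12 H2A, 16 H2B, 10 H3 and 13 H4) among 24500 genes tested.

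SH-SY5Y cells are an established human line from a neuroblastoma, labelled here as neuronal progenitor. For the 3 ERRg libraries (replicates 2, 3 and 4) the virus was Ad CMV 3xFlag-Esrrg, an adenovirus carrying the tagged mouse Esrrg coding sequence behind the CMV promoter, and for the 3 GFP libraries (replicates 1, 3 and 4) it was Ad CMV GFP. Both groups were the same line, both received virus in the same medium, and RNA was taken after 24 h. Total RNA was depleted of ribosomal RNA and made into strand-retaining libraries. The sources do not say whether replicates were separate cultures, so p-values measure only the spread between these libraries, which may be technical.

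Nucleosomes wrap DNA around a core of H2A, H2B, H3 and H4, and H1 binds the linker DNA between them. Replication-dependent histone genes lie in clusters, mostly lack introns, and are transcribed in S phase, when DNA is copied. Their mRNAs end not in a poly(A) tail but in a conserved stem-loop bound by SLBP, and cleavage after it is guided by the U7 small nuclear ribonucleoprotein. Libraries made from total RNA can hold such mRNAs, which selection for poly(A) tails largely loses.

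The stem-loop is the feature that defines these mRNAs, so 5 of them are printed here, 1 for a strongly counted member of each class and read from GRCh38, 5′ to 3′ on the gene's strand, with the stem and loop in capitals. The capitals lie at chr6:26055744-26055759 for H1-2, chr6:26217417-26217432 for H2AC8, chr1:149886188-149886203 for H2BC21, chr6:26031597-26031612 for H3C2 and chr6:26205001-26205016 for H4C5. The genes H2AC8 and H4C5 are on the plus strand and the other 3 on the minus strand.
H1-2: cccaaaaGGCTCTTTTCAGAGCCaccactg
H2AC8: aaccaaaGGCTCTTTTCAGAGCCacccacc
H2BC21: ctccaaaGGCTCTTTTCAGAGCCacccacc
H3C2: acccaaaGGCTCTTTTCAGAGCCacccact
H4C5: aatcaaaGGCCCTTTTCAGGGCCgcccaca

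A stem of 6 base pairs closed by a loop of 4 bases was found within 320 bases after the coding end in 63 of the 68 members. It began 26 to 71 bases after the last coding base, with the stop codon included in the distance. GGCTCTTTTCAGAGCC, the form of the H1-2, H2AC8, H2BC21 and H3C2 sequences above, was the stem-loop of 40 members in the H1, H2A, H2B and H3 classes. The forms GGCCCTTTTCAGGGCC (10 genes) and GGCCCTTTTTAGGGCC (4 genes), in which 1 pair of the stem differs, were found in H4 genes and in no member of another class. No such stem-loop was found by this rule in H2AC11, H2AC15, H2BC10, H3C6 or H4C13. The coding sequences of the H4 genes differ more than their products, since 15 genes had 13 distinct coding sequences and 14 of them encoded 1 protein. In H3, 10 of 13 genes encoded 1 protein.

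Promoter letters differed between the classes as well. RefSeq promoters (GRCh38.p14, 250 bases before to 50 after the start) were matched for 63 members and searched on both strands for the TATA box (TATAAA), the promoter element CCAAT, the octamer ATTTGCAT, the H1 box AAACACAAA and the ERR site AAGGTCA. The TATA box was in 42 of the 63 against 12.0% of 27305 promoters, and CCAAT in 53 against 35.7%. CCAAT was in every matched H1, H2A, H2B and H3 promoter but in 3 of 13 H4 promoters. The octamer, which POU2F1 binds, was in 11 of 16 H2A, 14 of 18 H2B, 1 of 11 H3 and no H1 or H4 promoters, against 1.80% of all promoters. The H3 match is in the window matched to H3C4, chr6:26199244-26199543, which is also the window of H2AC7. That window lies apart from the H3C4 gene at 26196784 to 26197286, so the match repeats that of an H2A promoter. The same holds for the CCAAT match of that window, which is also counted among the 11 H3 promoters. AAACACAAA was in 2 of 5 H1 promoters and in none of the other classes, against 0.637% of all. AAGGTCA, the letters that ERR receptors bind, was in 1 of the 63, an H2B promoter, against 3.97% of all. Windows of H2A and H2B genes that face away from each other can overlap. Those of H2BC8 (chr6:26216639-26216938) and H2AC8 (chr6:26216671-26216970) do, and both were counted for TATA box, CCAAT and octamer. A single match can therefore be counted for both genes of a pair, so the counts are not of separate promoters. All these matches are letters in a window and were not measured as bound sites. The 150 bases before to 10 after the start of an H2B, an H3 and an H4 gene are shown to let the class difference be seen, with TATA box, CCAAT and octamer matches in capitals, at chr1:149886673-149886832 (minus strand), chr6:26032090-26032249 (minus strand) and chr6:26204460-26204619 (plus strand).
H2BC21: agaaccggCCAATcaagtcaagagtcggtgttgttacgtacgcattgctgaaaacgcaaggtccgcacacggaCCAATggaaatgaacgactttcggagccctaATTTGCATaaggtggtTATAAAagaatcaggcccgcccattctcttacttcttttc
H3C2: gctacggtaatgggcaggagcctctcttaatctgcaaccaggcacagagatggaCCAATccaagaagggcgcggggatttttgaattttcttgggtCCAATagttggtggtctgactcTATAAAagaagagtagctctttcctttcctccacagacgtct
H4C5: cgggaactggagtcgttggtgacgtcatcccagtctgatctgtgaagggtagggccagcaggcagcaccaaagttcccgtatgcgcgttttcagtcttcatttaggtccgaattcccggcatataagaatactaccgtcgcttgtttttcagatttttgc

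The libraries differed in make-up before any histone was considered. Reads on genes numbered 24969759 to 29700980 in GFP and 26513620, 39723262 and 40859666 in ERRg replicates 2, 3 and 4. Reads assigned to no feature, which aligned but matched none of the counted features, made up 51.3 to 52.2% of all reads in GFP but 46.6, 31.6 and 29.5% in ERRg replicates 2, 3 and 4. The human ESRRG gene had 83.6 to 90.4 normalized counts per 1000000 (CPM) in GFP and 570, 772 and 778 CPM in ERRg (log2 fold change 3.02, SE 0.14). The virus carried the mouse sequence and reads were aligned to the human genome. How much of these counts came from viral RNA was not measured. Among adrenergic neuroblastoma markers, HAND2 and GATA3 were at 351 to 386 and 116 to 127 CPM in GFP. TH and CHGA had 0 counts in every library. LSM2, a gene that most cells use, also had 0, so such zeros alone do not show that an RNA was absent. Of 9 tested markers, 1 was called higher and 3 lower, with a median log2 fold change of -0.35. Over the 13746 tested protein-coding genes, 3555 were called higher and 1709 lower, with a median of 0.12. The adrenergic marker values ran from DBH at -2.64, called lower, to PHOX2A at 0.81, called higher. The adrenergic list was summed at 789 to 846 CPM in GFP and 575 to 753 in ERRg. The mesenchymal and Schwann cell list was summed at 8107 to 8331 CPM in GFP and 8250 to 9231 in ERRg. None of its 14 genes was called higher and 3 were called lower, beside the same 3555 and 1709 of 13746 protein-coding genes. Its values ran from COL1A2 at -1.47 to FN1 at 0.46.

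Histone genes of every class had higher counts in ERRg than in GFP. With edgeR's quasi-likelihood test and a Benjamini-Hochberg adjusted p below 0.05 and at least 1.5-fold over all tested genes, 52 of 55 members were called higher and none lower, and all 55 log2 fold changes were above 0. Over all 24500 genes, 17.3% were called higher (4234, with 4117 lower), and over the 13746 protein-coding genes 25.9%. The called members rose 1.51-fold to 2.82-fold, with adjusted p from 0.00039 to 0.022. The median log2 fold change of the tested members was 0.97, beside -0.10 for all genes and 0.12 for protein-coding genes. The calls were 4 of 4 in H1, 10 of 12 in H2A, 16 of 16 in H2B, 10 of 10 in H3 and 12 of 13 in H4. Scaling by library size alone, with no adjustment for composition, moved the median of all genes to -0.42 and left 33 of 55 members called, beside 2200 genes higher and 7566 lower. In bulk RNA, a change in the share of cells that make histone mRNA and a change in histone RNA per cell cannot be told apart.

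**Figure D1:**
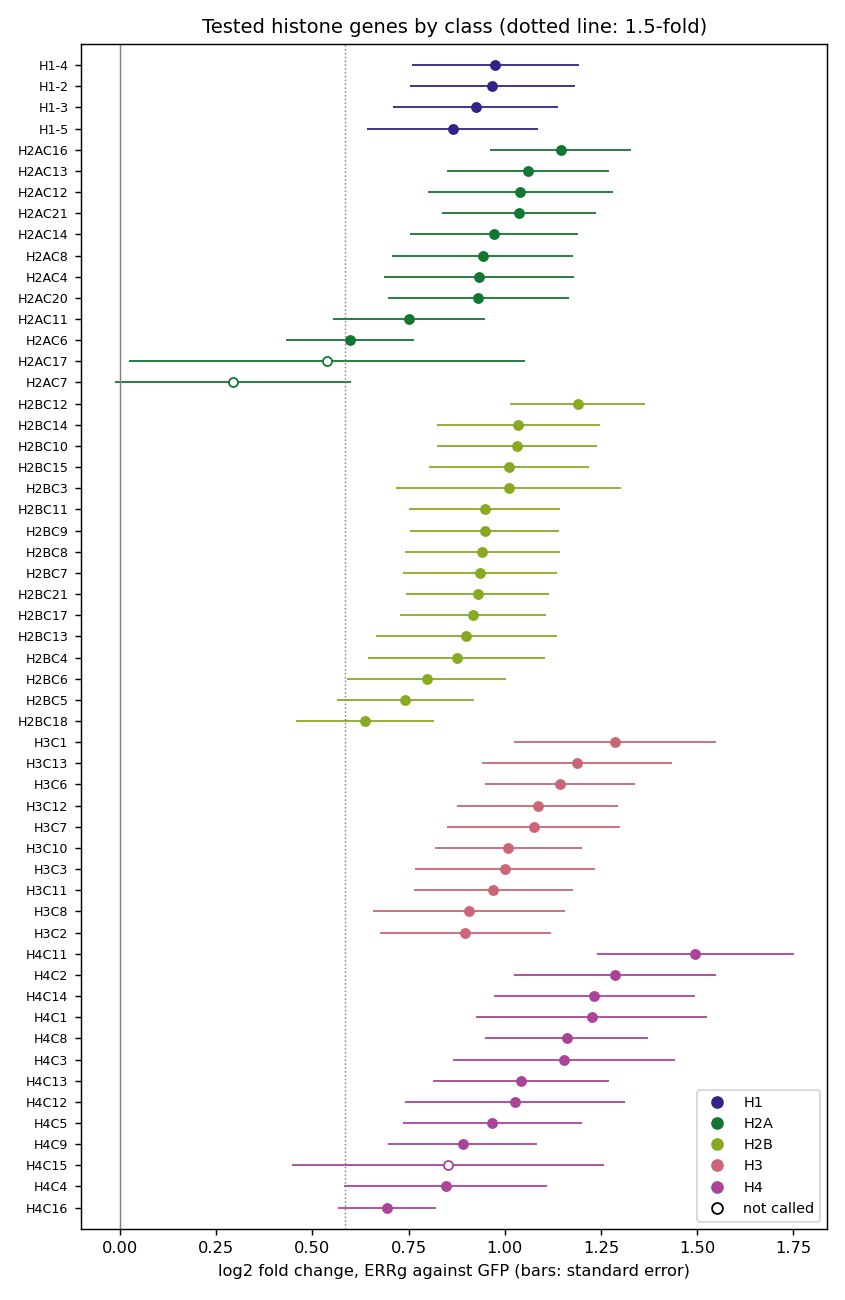
Log2 fold change (x axis, ERRg against GFP, bars 1 standard error) of the 55 tested histone genes, grouped by class on the y axis. Filled points are the 52 called members, open points H2AC7, H2AC17 and H4C15, and all points lie right of 0, from 0.29 to 1.49.

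The class sums showed how the libraries ranked. All members together gave 2139, 3083 and 2929 CPM in GFP replicates 1, 3 and 4 and 3452, 6137 and 6188 CPM in ERRg replicates 2, 3 and 4, a mean of 2717 ± 506 against 5259 ± 1565 (SD, n = 3 each). The ratio of group means was 1.91 for H1, 1.85 for H2A, 1.87 for H2B, 2.03 for H3 and 2.08 for H4. In each class every ERRg library was above every GFP library. ERRg replicate 2 was close to the control range, at 1.08 to 1.18 times the highest GFP library over the classes. ERRg replicates 3 and 4 were on average 1.65 times (H2B) to 2.01 times (H4) the level of ERRg replicate 2. GFP replicate 1 was the lowest library in every class, and the highest GFP library exceeded it 1.37 to 1.48 times.

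**Figure D2:**
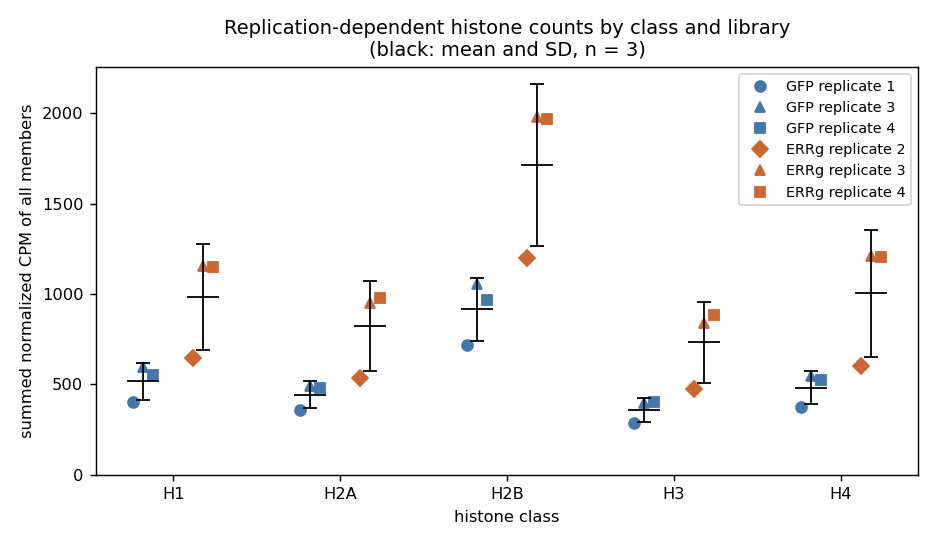
Summed normalized CPM of the members of each class (y axis, from 0) in each of the 6 libraries, with group mean and SD in black (n = 3). ERRg replicate 2 (diamonds) lies just above the GFP libraries in all 5 classes, and ERRg replicates 3 and 4 lie well above it, at 952 to 979 CPM in H2A and 1204 to 1208 in H4.

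Of the histone counts, H2B gave the largest share, 33.1 to 34.3% in GFP and 31.8 to 34.7% in ERRg, and H1 gave 18.8 to 19.3% and 18.6 to 18.8%. H4 made up 17.6, 17.7 and 17.9% in GFP, 17.4% in ERRg replicate 2, and 19.7 and 19.5% in ERRg replicates 3 and 4. The H4 share was higher than in GFP in ERRg replicates 3 and 4 and not in replicate 2. Summed over classes, histones took 0.242 to 0.341% of reads on genes in GFP and 0.348, 0.520 and 0.516% in ERRg replicates 2, 3 and 4.

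All 4 tested linker histone genes were called higher. H1-2, which encodes a linker histone common in somatic cells, had 141, 205 and 189 CPM in GFP replicates 1, 3 and 4 and 230, 399 and 418 CPM in ERRg replicates 2, 3 and 4 (log2 fold change 0.97, SE 0.21, adjusted p 0.0038). H1-5 had 124, 190 and 172 CPM against 192, 351 and 342 CPM (0.86, SE 0.22, adjusted p 0.0089). In both genes the groups did not overlap, but for H1-5 the gap between the highest GFP and the lowest ERRg library was small. H1-3 and H1-4 had log2 fold changes of 0.92 (SE 0.21) and 0.98 (SE 0.22). H1-1 had 1 to 8 counts in every library and was not tested.

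H2A, whose protein pairs with H2B in the nucleosome core, held the least changed tested member, and its log2 fold changes ran from 0.29 to 1.15. H2AC8 had 62.9, 90.3 and 88.9 CPM in GFP and 94.3, 186 and 185 CPM in ERRg (log2 fold change 0.94, SE 0.24, adjusted p 0.0075). H2AC16 had 14.5, 20.1 and 18.4 CPM against 28.2, 42.2 and 46.8 CPM (1.15, SE 0.18, adjusted p 0.00062). The groups were apart in both genes, and in H2AC16 ERRg replicate 2 stood further above GFP. H2AC6 was the called member with the smallest change, 72.6, 83.3 and 87.8 CPM against 88.2, 136 and 145 CPM (0.60, SE 0.17, adjusted p 0.013). In H2AC6, ERRg replicate 2 was level with the highest GFP library. H2AC11 and H2AC13 had log2 fold changes of 0.75 (SE 0.20) and 1.06 (SE 0.21) and were called. H2AC7 (15 to 30 counts; 0.29, SE 0.31) and H2AC17 (3 to 24 counts; 0.54, SE 0.51) were not called and their groups overlapped.

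All 16 tested H2B genes were called. H2BC21 had 96.6, 139 and 127 CPM in GFP and 167, 259 and 266 CPM in ERRg (log2 fold change 0.93, SE 0.19, adjusted p 0.0022). H2BC12 had 60.4, 80.1 and 75.2 CPM against 119, 182 and 191 CPM (1.19, SE 0.18, adjusted p 0.00039), the smallest adjusted p of the members. Both genes had every ERRg library above every GFP library, and H2BC12 was 1.48 times the highest GFP library in ERRg replicate 2. H2BC18 had 87.3, 129 and 116 CPM against 128, 195 and 194 CPM (0.64, SE 0.18, adjusted p 0.014), so ERRg replicate 2 fell inside the GFP range. H2BC5 had a log2 fold change of 0.74 (SE 0.18) and H2BC14 of 1.04 (SE 0.21).

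H3 and H4, which form the tetramer at the centre of the nucleosome, had the highest class medians, 1.04 each, beside 0.95 in H1 and 0.94 in H2A and H2B. These differences between classes were not tested. H3C2 had 61.4, 91.7 and 91.6 CPM in GFP and 99.0, 177 and 180 CPM in ERRg (log2 fold change 0.90, SE 0.22, adjusted p 0.0072). H3C1 changed most within H3, from 10.1, 15.8 and 14.9 CPM to 19.2, 38.2 and 42.0 CPM (1.29, SE 0.26, adjusted p 0.0024). In both genes the groups were apart. H3C3 (1.00, SE 0.23), H3C6 (1.14, SE 0.19), H3C11 (0.97, SE 0.21) and H3C13 (1.19, SE 0.25) were called too, and H3C8 (0.91, SE 0.25) was called with overlapping groups.

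Per kilobase of exon, H4C5 had the highest GFP level of the tested members, 289 CPM per kilobase, followed by H1-2 (244), H1-5 (203), H4C3 (194) and H4C2 (164). H4C5 had 94.2, 135 and 129 CPM in GFP and 143, 271 and 286 CPM in ERRg (log2 fold change 0.97, SE 0.23, adjusted p 0.0061). H4C2 had 47.8, 70.9 and 71.8 CPM against 87.8, 188 and 189 CPM (1.29, SE 0.26, adjusted p 0.0025). H4C3 had 59.7, 91.7 and 84.7 CPM against 89.9, 224 and 211 CPM (1.15, SE 0.29, adjusted p 0.0076). ERRg replicate 2 was above the GFP range for H4C5 and H4C2 and inside it for H4C3. H4C11 had the largest log2 fold change of the members, 1.49 (SE 0.26, adjusted p 0.00089), at 2.38 to 2.78 CPM in GFP and 4.38, 8.73 and 9.01 CPM in ERRg, and 90.7% of its 100-base words occur elsewhere on the main chromosomes. H4C16, the member on chr12, had 12.7, 14.8 and 14.1 CPM against 18.8, 23.9 and 24.7 CPM (0.69, SE 0.13, adjusted p 0.0013). H4C13 (1.04, SE 0.23) was called without overlap, and H4C4 (0.85, SE 0.26) was called with ERRg replicate 2 inside the GFP range. H4C15 (7 to 38 counts; 0.85, SE 0.41) was not called.

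ERRg replicate 2, the ERRg library nearest to GFP in the share of reads assigned to no feature, was also the nearest in histone counts. All ERRg libraries were above all GFP libraries for 45 of 55 members, beside 27.8% of all tested genes. The 7 called members with overlap, H2BC3, H2BC13, H2BC18, H3C8, H4C3, H4C4 and H4C12, overlapped through ERRg replicate 2. With ERRg replicate 2 as the only ERRg library, 4 of 55 members were called higher, H4C11, H2BC12, H2AC16 and H3C6, beside 9.6% of genes, and the median member log2 fold change was 0.36. That fit takes the spread from the GFP libraries. With the share of reads assigned to no feature as a covariate, 0 of 55 members were called in edgeR's quasi-likelihood test, beside 7.24% of genes, and 5 had an unadjusted p below 0.05. The member log2 fold changes in that fit ran from -0.33 to 0.50 (median 0.08), 20 of them below 0, and H2BC12 (0.50, SE 0.12, adjusted p 0.0018) and H2AC16 (0.44, SE 0.14, adjusted p 0.020) had an adjusted p below 0.05 without reaching 1.5-fold. The class medians were 0.07 in H1, -0.04 in H2A, 0.17 in H2B, 0.11 in H3 and 0.11 in H4. Because the share was lower in every ERRg library than in every GFP library, virus and library make-up cannot be told apart by this design.

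**Figure D3:**
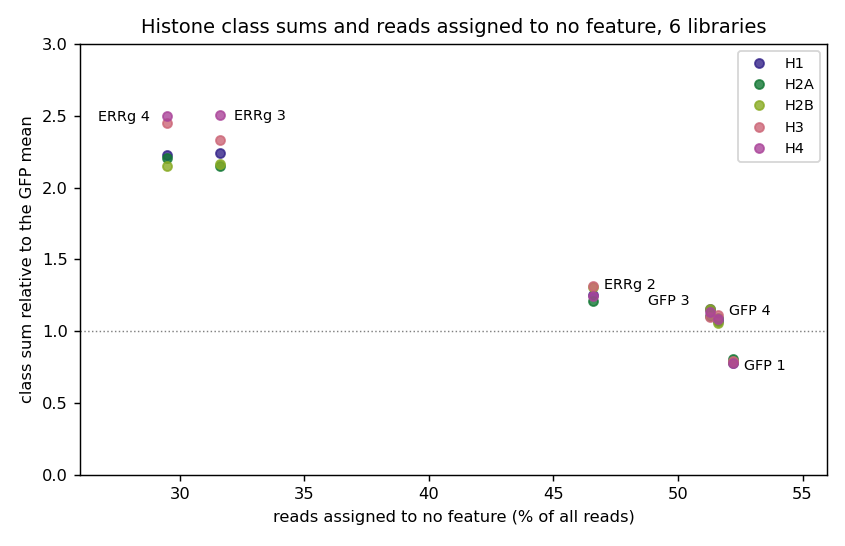
Class sum divided by its GFP mean (y axis, from 0, no unit) against the percent of all reads assigned to no feature (x axis) for the 6 libraries, 1 point per class. The GFP libraries lie at 51.3 to 52.2%, ERRg replicate 2 at 46.6% just above them, and ERRg replicates 3 and 4 at 31.6 and 29.5% and above 2.0 in every class.

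**Figure D4:**
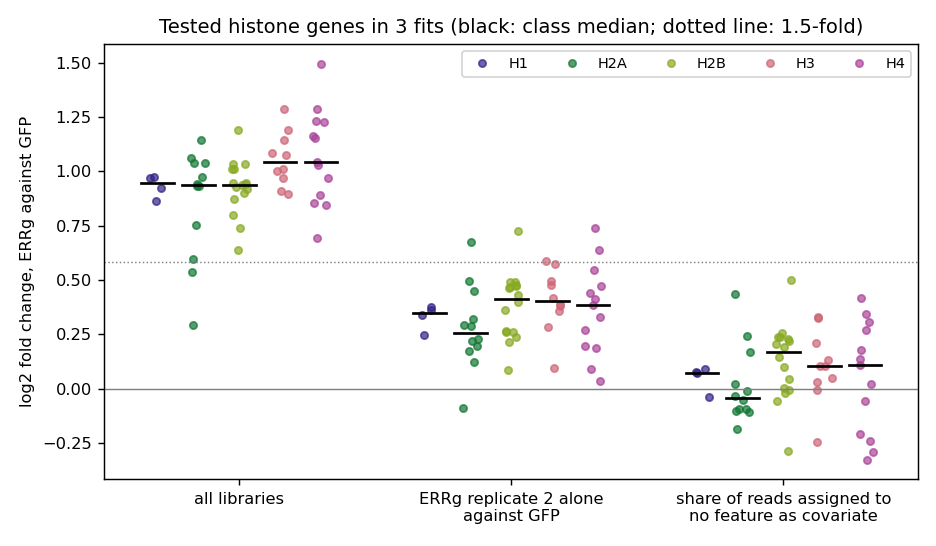
Log2 fold change of the 55 tested members (y axis, ERRg against GFP) by class in 3 fits, with class medians as black bars. Medians of 0.94 to 1.04 with all libraries fell to 0.26 to 0.42 with ERRg replicate 2 alone and to -0.04 to 0.17 with the no-feature share as covariate.

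Members were also grouped by place and length, with no test. The median log2 fold change was 0.95 for 27 tested members in the first stretch of chr6 (26020451 to 26285638), 1.01 for 20 in the second (27125897 to 27893891) and 0.93 for 7 on chr1 (149782689 to 149887965). The 13 tested members with over 900 bases of exon had a median of 0.93, with 12 called, and the 42 shorter ones 0.97, with 40 called. Among other protein-coding genes with exons of up to 900 bases, 42.6% of 108 were called higher, with a median of 0.40. Other single-exon protein-coding genes were called higher in 29.9% of 224, with a median of 0.14.

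H2A and H2B genes often face away from a shared promoter region, and 12 such pairs had starts 170 to 251 bases apart. In the 9 pairs with both genes tested, the log2 fold changes differed by 0.00079 to 0.64 (median 0.16). H2BC8 and H2AC8 had 0.94 each, and H2BC21 and H2AC20 0.93 each. The widest gap was H2AC7 (0.29) against H2BC7 (0.94), and 85.3% of the exon bases of H2AC7 are covered by exons of another gene on the same strand.

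Some members share sequence with other loci. H3C14, H3C15, H4C14 and H4C15 share all their 100-base words with other places, and H4C12, H2AC14, H2AC13 and H2BC18 share 91.3, 61.8, 58.8 and 50.3%, so how reads were split or left out there is uncertain. The 7 tested members with over 50% of words elsewhere had a median log2 fold change of 1.03 (6 called), and the other 48 had 0.96 (46 called). H2AC17 and H3C12 overlap on the same strand, and H2AC7 and H3C4 lie under exons of another annotated gene, where reads that fit both can be left uncounted. H2AC1, H2AC15, H2AC25 and H2BC26 had 0 counts in every library, which allows up to 3 counts per library by counting error alone. That limit does not cover reads lost in alignment or in assigning reads to genes, which were not measured. H2BC1, H3C4, H4C6 and H4C7 stayed at or below 5 counts in every library, and H3C14 (4 to 22 counts) and H3C15 (3 to 10) did not pass the filter.

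Genes that act on histone mRNA were counted from lists by role. Of 19 tested genes for 3′ end processing, 7 were called higher and none lower (median log2 fold change 0.35). Protein-coding genes as a whole were called higher in 25.9% (median 0.12). LSM10, a U7-specific ring protein, had 9.54, 10.5 and 10.2 CPM in GFP and 17.8, 31.3 and 29.8 CPM in ERRg (1.39, SE 0.19, adjusted p 0.00025). SLBP, which binds the stem-loop, had 30.7, 36.5 and 35.8 CPM against 37.7, 44 and 49.4 CPM (0.35, SE 0.12, adjusted p 0.032) and stayed under 1.5-fold. For both the groups did not overlap. LSM11, the partner of LSM10, was at 0.33 (SE 0.13, adjusted p 0.060), and ZNF473, a U7 cofactor, at 0.12 (SE 0.10). NPAT, the coactivator that gathers at histone loci, was at -0.35 (SE 0.11, adjusted p 0.025) and was not called. CASP8AP2 and the U7 RNA gene RNU7-1 had 0 or 1 counts in all libraries, and LSM2, a gene that most cells use, was also at 0. RNU7-1 has 63 bases, of which 98.4% lie under exons of another gene on the same strand. Reads that fit both can be left uncounted, so its counts do not show whether U7 RNA was present.

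Genes of histone mRNA translation and decay went both ways, with 6 of 15 called higher, 2 lower and a median of 0.40. Beside them, 25.9% of protein-coding genes were called higher, with a median of 0.12. XRN1, a 5′ to 3′ exonuclease, fell, with 106 to 130 CPM in GFP and 67.2, 52.1 and 50.5 CPM in ERRg (log2 fold change -1.03, SE 0.13, adjusted p 0.00016). LSM7, part of the ring that binds the 3′ ends of decaying mRNAs, rose (1.21, SE 0.17), and ERI1, which trims the stem-loop end, was at -0.34 (SE 0.18, adjusted p 0.14). Among 12 tested regulators of histone gene transcription 1 was called higher and 2 lower, with a median of 0.16. CDKN1A, an inhibitor of cyclin-dependent kinases, rose, with 233 to 281 CPM in GFP and 819, 1203 and 1332 CPM in ERRg (2.11, SE 0.18, adjusted p 2.1e-05), POU2F1 fell (-0.60, SE 0.10, adjusted p 0.00079), and HINFP, an activator of H4 genes, was at 0.11 (SE 0.10). In these genes every ERRg library lay on 1 side of the GFP libraries except for ERI1 and HINFP.

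Of 49 tested S phase genes, 11 were called higher and 1 lower, with a median log2 fold change of 0.34. Over all tested protein-coding genes, 25.9% were called higher, with a median of 0.12. RPA2, a subunit of the protein that coats single-stranded DNA, changed most in the list (0.89, SE 0.14, adjusted p 0.00050), and CCNE2, a cyclin of the start of S phase, fell (-0.61, SE 0.15, adjusted p 0.0082). PCNA, the sliding clamp of replication, was at 0.34 (SE 0.13, adjusted p 0.047) and RRM2, a subunit of ribonucleotide reductase, at 0.21 (SE 0.12, adjusted p 0.16). Histone chaperones gave 4 called higher and 1 lower of 20, with a median of 0.23. MCM2, a replicative helicase subunit that also holds H3 and H4, rose (0.75, SE 0.13), and ATRX, which loads H3.3, fell (-0.67, SE 0.13). DAXX, the partner of ATRX, had the largest value of the list at 0.284 to 1.03 CPM (1.05, SE 0.41, adjusted p 0.052) and was not called.

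Replication-independent histones, most of which are made from polyadenylated mRNAs and not only in S phase, were listed as counterparts of these genes. The 3′ end forms of their mRNAs, H2AX included, were not told apart here. Of 10 tested genes of this list, 3 were called higher and none lower, beside 25.9% of protein-coding genes called higher. The median log2 fold change of the list was 0.51. H2AZ1 had 96.9, 112 and 104 CPM in GFP and 165, 267 and 256 CPM in ERRg (1.13, SE 0.16, adjusted p 0.00036). H2AX, which is phosphorylated at DNA breaks, had 47.1, 60.5 and 53.9 CPM against 77.6, 103 and 122 CPM (0.91, SE 0.16, adjusted p 0.00097). In both, every ERRg library was above every GFP library. H2AJ rose at low level (0.248 to 0.695 CPM in GFP; 1.40, SE 0.42, adjusted p 0.018). H3-3A and H3-3B, which encode H3.3, were at 0.50 (SE 0.14) and 0.55 (SE 0.14), H2AZ2 at -0.12 (SE 0.11) and MACROH2A1 at -0.46 (SE 0.09), none of them called. H1-10 and MACROH2A2 were at 0.44 and 0.52 and not called either. Among testis histones 1 was tested, H1-6 (-0.56, SE 0.43), and it was not called.

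**Figure D5:**
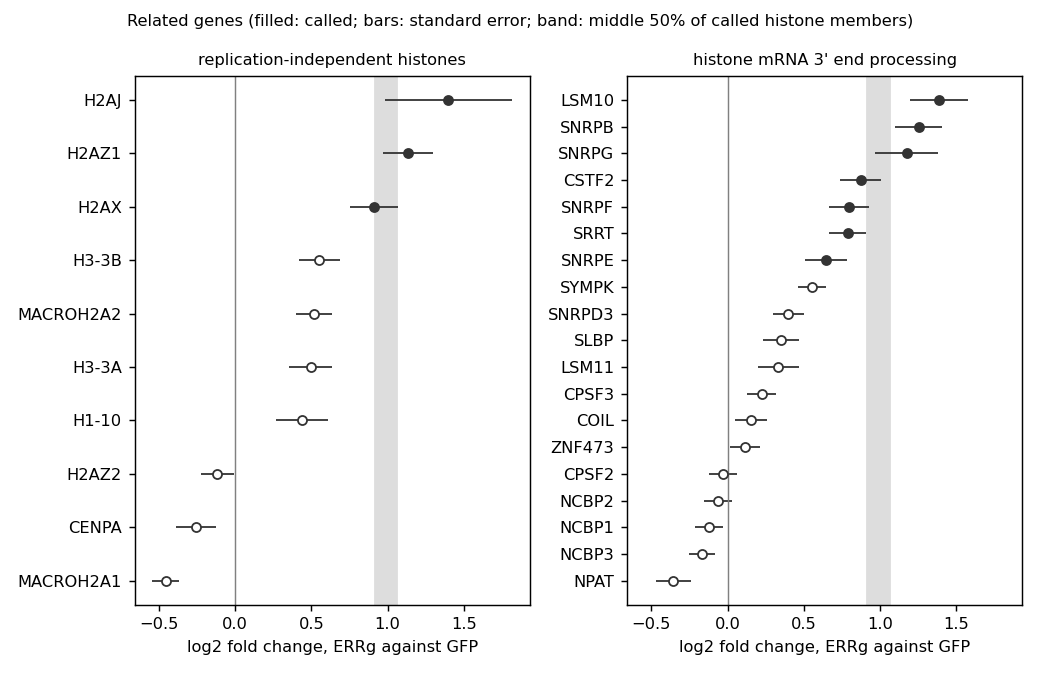
Log2 fold change (x axis, ERRg against GFP, bars 1 standard error) of the tested replication-independent histones (left) and genes of histone mRNA 3′ end processing (right), filled where called. The grey band is the middle 50% of the called replication-dependent members, and 3 of 10 and 7 of 19 genes are filled.

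All 6 tested short RNAs without a poly(A) tail were highest in ERRg replicates 3 and 4. RN7SL1, which forms the core of the particle that targets secreted proteins, had 4971, 6255 and 6827 CPM in GFP and 9966, 38467 and 34921 CPM in ERRg replicates 2, 3 and 4 (log2 fold change 2.21, SE 0.41, adjusted p 0.0014). It was above GFP in every ERRg library and more than 3 times higher in ERRg replicates 3 and 4 than in ERRg replicate 2. Of the 6, 2 were called higher (RN7SL1 and RNU1-1) and none lower, beside 17.3% of all tested genes called higher. Their median was 0.87, with RNU4-1 at the smallest value (0.51, SE 0.28). The part that such RNAs or library make-up have in the histone values was not tested.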

How the data were processed

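RNA sequencing of 6 SH-SY5Y libraries was analysed. The authors deposited raw counts per gene; per the labels, reads were trimmed with Trim Galore 0.6.7, aligned to GRCh38 with STAR 2.7.9a and counted with HTSeq 0.11.3. The annotation release, strand setting and overlap mode are not given in the sources used here. Identifiers were matched without version to GENCODE 44 (90.1% of 67060 found; the rest held 0.153% of counts). Summary entries (no feature, ambiguous, not unique) were kept out of library sizes and tests.

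The count test was edgeR 4.0.16 in R 4.3.3 (filterByExpr, TMM, quasi-likelihood test, group as the only term). A gene was called at 1.5-fold and a Benjamini-Hochberg adjusted p below 0.05 over all 24500 genes. Each standard error is the size of the log2 change divided by the root of its F statistic. CPM uses TMM-scaled library sizes. In simulated data with these library sizes (24334 genes tested), 66 of 100 genes changed by 1 on the log2 scale and 94 of 100 changed by 2 were recovered. There were 5 false calls. The simulation gave every gene the same spread and left out the differences in make-up between the ERRg libraries. Its recovery is therefore not that of the real comparison.

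Stem-loops, exon overlaps and shared 100-base words were read from GRCh38 and GENCODE 44, and promoter sequences are from RefSeq. Genes given by value were the H1 genes, in each other class the 4 with most counts and the 2 with the largest and smallest change, set genes of the related lists and the extremes of each list; any other gene was picked with its values in view. Some genes of the related lists are not reported here. The members and lists were chosen with earlier results of these data known. Alternatives included DESeq2 1.42.0, other scalings, filters and cutoffs, GC and length offsets, a replicate block, the no-feature share as a covariate and leaving out each library; ERRg replicate 2 alone was chosen after seeing the data. Replicate numbers 3 and 4 are shared by the groups but their deviations did not correlate, so they were not treated as pairs.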

Additional observations from a re-analysis of the deposited data

Results flagged for a closer look

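Reads that the comparison does not use also differed between the groups. Ambiguous reads, which fall on more than 1 gene, made up 5.69, 9.84 and 9.79% of all reads in ERRg replicates 2, 3 and 4, each above the highest GFP library at 4.87%. Reads aligned to several places made up 9.33, 12.7 and 13.0% in ERRg replicates 2, 3 and 4, above the highest GFP library at 7.41%. Both were singled out because a signal outside the counted reads exceeded that of every control library. The number of such reads that come from replication-dependent histone genes was not measured.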

How the results depend on the processing

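The counts of histone genes called higher stayed between 45 and 54 without any 1 library (54 of 56 tested without ERRg replicate 2), and none was called lower. DESeq2 called 51 of 55. With a replicate block, 52 of 55 members were called, and the block with GC and length correction also gave 52. GFP replicate 1 and ERRg replicate 2 have no same-numbered library in the other group. A block by replicate number therefore takes the group difference from the other libraries only. Neither block fit can show whether the calls depend on ERRg replicate 2. The correlations of same-numbered libraries were 0.075 and -0.0001. The member count moved to 33 with library size only, 24 with a 2-fold cutoff, 4 with ERRg replicate 2 alone and 0 with the no-feature share as covariate; the cause of these shifts was not tested. Genes called higher and lower were 2200 and 7566 with library size only, 2814 and 2468 with protein-coding genes only (fewer genes tested), 1773 and 1323 with the covariate, 2555 and 2031 with ERRg replicate 2 alone, and 1952 and 1982 with the 2-fold cutoff. Class medians with the covariate were 0.075 (H1), -0.042 (H2A, reversed), 0.17 (H2B), 0.11 (H3) and 0.11 (H4), and with ERRg replicate 2 alone 0.35, 0.26, 0.42, 0.40 and 0.39. The log2 ratios of class sums for ERRg replicate 2 alone were 0.32, 0.27, 0.39, 0.39 and 0.32. The H4 median ran from 0.87 to 1.43 when 1 library was left out, the highest without ERRg replicate 2. The class sums without the member with the highest counts kept their values within the spread between libraries.

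Single genes turned direction under these settings. With the covariate the log2 fold changes were -0.039 for H1-5, -0.092 for H2AC8, -0.10 for H2AC6, -0.093 for H2AC11, -0.19 for H2AC7, -0.052 for H2AC17, -0.0055 for H3C2, -0.25 for H3C8, -0.057 for H4C5, -0.21 for H4C3, -0.33 for H4C4, -0.020 for ZNF473, -0.11 for HINFP, -0.24 for H1-10, -0.0039 for H2AJ, -0.044 for H3-3A, -0.46 for DAXX and -0.55 for RNU4-1. With library size only H2AC7 was at -0.046, ZNF473 at -0.21 and HINFP at -0.22. With protein-coding genes only ZNF473 was at -0.022 and HINFP at -0.030. With ERRg replicate 2 alone H2AC7 was at -0.087, HINFP at -0.024, DAXX at -0.0097 and RNU4-1 at -0.31. H2AZ2 was at 0.090 with GC and length correction, 0.17 with the replicate block and that correction and -0.16 to 0.082 with 1 library left out (the highest without ERRg replicate 2), and ZNF473 at -0.0093 with the block and correction. Depth limits the members with low counts, and H2AC7, H2AC17 and H4C15, with 3 to 38 counts, gave standard errors of 0.31 to 0.51.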
